A study of Mus musculus with 2 samples.

Results

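Differentiating granule neurons of the embryonic mouse cerebellum were read in 2 single-cell RNA libraries, 1 from mutants and 1 from controls. Members were chosen by measured UMIs (unique molecular identifiers, each standing for 1 captured transcript). A cell was taken as one when it held at least 2 UMIs of Neurod1, at least 1 of Pax6 and 1 of Cntn2, and none of Atoh1 or Eomes. In all, 887 of 33294 cells met this rule, 95 of 16482 in the mutant library and 792 of 16812 in the control library. Cells had first to hold at least 1000 UMIs and 500 detected genes with at most 10% mitochondrial UMIs. Mutant embryos carried Blbp-cre together with Ctnnb1(ex3)fl/wt, an allele that yields stabilised beta-catenin after recombination, and Smarca4fl/fl, which removes the BRG1 ATPase of the BAF chromatin remodelling complex. These embryos had lesions in the cerebellum, and controls were cre-negative. Both genotypes were taken as total cerebellum at E16.5, and 3 samples were pooled into each library, so the animals cannot be told apart. The Blbp promoter drives Cre in neural progenitors, and which of the cells below had recombined was not read by these data.

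Granule neurons arise from the rhombic lip. Their precursors express the transcription factor Atoh1, spread over the surface of the cerebellum as the external granule layer and divide in response to Sonic hedgehog. On leaving the cell cycle they lose Atoh1, express Neurod1 and the axonal adhesion protein Cntn2, extend parallel fibres and migrate inwards, while unipolar brush cells, another rhombic lip derivative, express Eomes.

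With 1 library per genotype no test between genotypes was possible. Every interval below is a 95% interval that covers counting error only, and a gene is called higher or lower by size alone, at 1.5-fold or more. Members held a median of 11122 UMIs and 3468 genes in the mutant library and 11288 UMIs and 3623.5 genes in the control library, and their summed depth was 1301064 and 10220647 UMIs. No member barcode occurred in both libraries, although 67 barcodes of passing cells did. UMIs of Xist were found in 41.1% of mutant and 38.6% of control members, and UMIs of Y-linked genes in 61.1% and 60.4%, so both pools held cells of both sexes.

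The label was checked on Rbfox3, which encodes the neuronal splicing regulator NeuN, and Nhlh2, which encodes a bHLH transcription factor of newborn neurons, since the rule used neither. Rbfox3 stood at 100.7 CPM (UMIs of the gene per 1000000 UMIs; 84.2 to 120) in mutant members and 119 CPM (112 to 126) in control members, against 25.8 and 69.8 CPM in all other passing cells of the same libraries. Nhlh2 stood at 131 CPM (112 to 153) in mutant members and 175 CPM (167 to 183) in control members, against 15.3 and 64.9 CPM in the other cells. Both markers were thus highest in the members of each library among the 5 kinds of cells plotted by level. Each cell was then thinned to 3000 UMIs to put shares of cells on 1 depth. Cells with at least 2 UMIs of Eomes and none of Atoh1 came near the members for Rbfox3. It was seen in 25.5% (17.1 to 35.6) of mutant members and 20.8% (17.6 to 24.3) of those cells, intervals that overlap. In the control library the shares were 33.2% (29.9 to 36.6) and 23.8% (21.6 to 26). For Nhlh2 those cells had 15.5% in the mutant and 24.7% in the control library. On that depth Nhlh2 was seen in 35 of 94 mutant members (37.2%) and 320 of 784 control members (40.8%), and in 2.42% of mutant and 7.17% of control erythroid cells, which should lack it. Without thinning, the same shares were 72.6% and 76.1% of members and 5.78% and 24.9% of erythroid cells. Erythroid cells had median depths of 17212 and 17848 UMIs, and Nhlh2 UMIs were counted in them too, more often in the control library. They were defined by haemoglobin alone. Of the members, 6 mutant and 42 control cells were also among them, so erythroid cells are not a clean background here or below.

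E-box forms near the transcription start were counted in the granule neuron markers and in all genes. The promoter windows of 250 bases before to 50 after the transcription start, taken from RefSeq (GRCm38.p6), were searched on both strands for the E-box forms CAGATG and CAGCTG, which bHLH factors such as NEUROD1 can bind, and for CTTTGA, the core of the TCF/LEF site. Of 32851 windows of all genes, 17.2% held CAGATG, 16.3% CAGCTG and 16% CTTTGA. Of the 6 windows of the 5 marker genes, 1 held CAGATG and 1 CAGCTG, both of them the window of Nhlh2. That is 16.7% for each form, but 6 windows are too few to compare with the shares of all windows. Of the 14 windows of the 12 member-enriched genes lowest in the mutant, described below, 3 held CAGATG and 1 CAGCTG, and 1 held CTTTGA. The windows of Nhlh2 (plus strand, chr3:102009895-102010194) and of Cartpt (minus strand, chr13:99900634-99900933) are shown, and both hold an E-box form. The rule did not use Nhlh2, and Cartpt is one of the genes that differed most. The windows of Rbfox3, which the rule did not use either, and of Epha3 and Ostf1, which also differed, held neither form. Capitals mark the E-box forms.
Nhlh2: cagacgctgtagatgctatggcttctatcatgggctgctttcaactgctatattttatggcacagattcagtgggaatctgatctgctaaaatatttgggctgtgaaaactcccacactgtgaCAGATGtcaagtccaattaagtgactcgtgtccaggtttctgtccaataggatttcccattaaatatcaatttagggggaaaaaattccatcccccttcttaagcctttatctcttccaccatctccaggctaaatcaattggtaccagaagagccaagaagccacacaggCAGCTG
Cartpt: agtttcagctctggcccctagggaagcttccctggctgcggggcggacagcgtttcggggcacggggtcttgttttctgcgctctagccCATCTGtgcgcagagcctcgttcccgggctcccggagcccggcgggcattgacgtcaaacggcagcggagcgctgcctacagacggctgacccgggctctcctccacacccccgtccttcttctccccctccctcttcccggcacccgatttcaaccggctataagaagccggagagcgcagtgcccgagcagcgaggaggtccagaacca
A match is a description of the letters only, and no binding was measured.

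**Figure D1:**
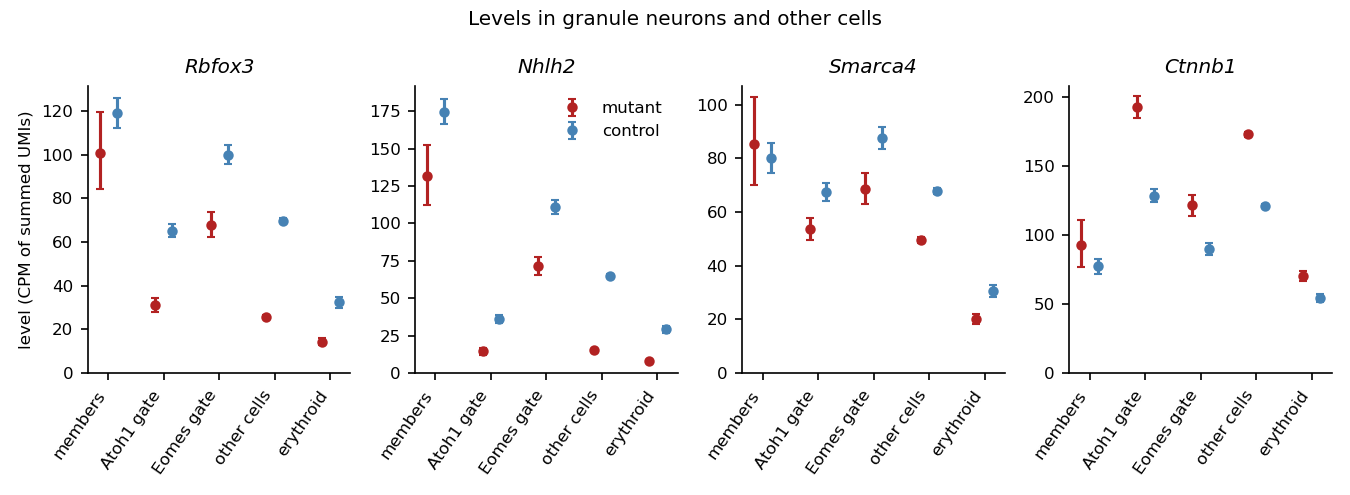
Levels of Rbfox3, Nhlh2, Smarca4 and Ctnnb1 (y axes, CPM of UMIs summed over the cells) in members, cells gated on Atoh1, cells gated on Eomes, all other passing cells and erythroid cells (x axis), for the mutant (red) and control (blue) library, with bars for 95% Poisson intervals. Rbfox3 and Nhlh2 are highest in members of both libraries, and Smarca4 in members is at 85.3 CPM for the mutant, against 80.1 CPM for the control library.

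Members were rarer in the mutant library. They made up 0.576% (0.467 to 0.704) of mutant and 4.71% (4.40 to 5.04) of control passing cells, a ratio of 0.122 (0.0978 to 0.152). A lower share of members and a higher share of other cells cannot be told apart here. Because the rule sets these shares they are a description, and it can be followed condition by condition. Neurod1 at 2 or more UMIs held for 15.2% of mutant and 40.0% of control cells. With Pax6, the paired-box factor of the rhombic lip, 9.70% and 35.8% were left, and with Cntn2 2.42% and 11.96%. Requiring no Atoh1 kept 83.7% of the remaining mutant cells and 84.0% of the control cells. Requiring no Eomes kept 28.5% (23.7 to 33.7) of the mutant cells and 46.9% (44.5 to 49.3) of the control cells. The genotypes thus parted at every condition but that on Atoh1.

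**Figure D2:**
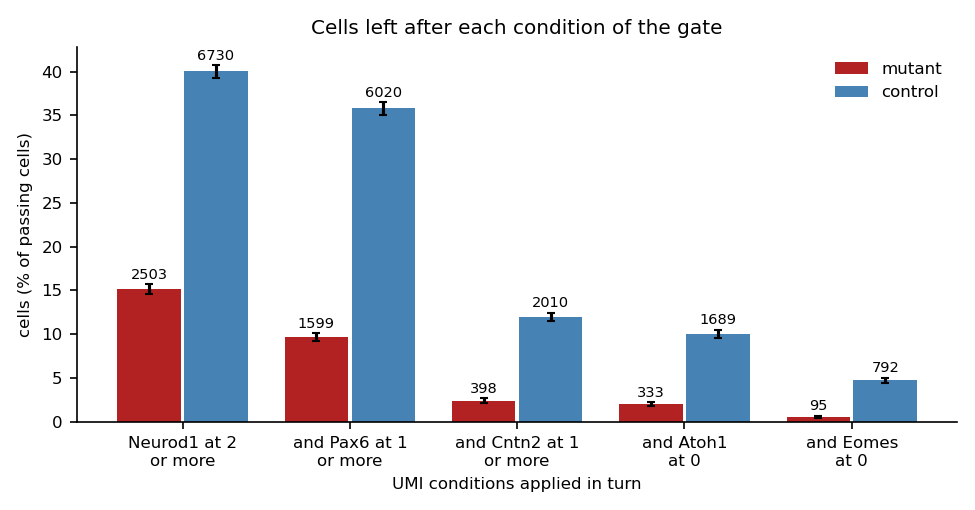
Share of passing cells (y axis, %) left after each UMI condition applied in turn (x axis), for the mutant (red, left bar) and control (blue, right bar) library, with exact binomial 95% intervals and the number of cells above each bar. The last pair are the members, 95 mutant and 792 control cells.

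Other rhombic lip cells were also rarer in the mutant library, by less. Cells with at least 2 UMIs of Atoh1 and none of Eomes, here called Atoh1 gate cells, made up 4.01% of mutant and 8.54% of control cells, a ratio of 0.470 (0.428 to 0.515). Cells with at least 2 UMIs of Eomes and none of Atoh1, the Eomes gate cells, made up 3.61% and 8.93%, a ratio of 0.404 (0.367 to 0.445). Of members and Atoh1 gate cells together, members were 12.6% (10.3 to 15.1) in the mutant and 35.6% (33.6 to 37.6) in the control library. When every cell was thinned to 3000 UMIs before gating, 39 of 14430 mutant and 269 of 14379 control cells were members, a ratio of 0.144 (0.10 to 0.203).

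Near the thresholds, Cntn2 was the condition most cells missed. With the other 4 conditions met, 441 mutant and 1670 control cells had no Cntn2 UMI, while 59 of 95 mutant and 508 of 792 control members had exactly 1. Pax6 was the exception to the rarity of near-members, being at 0 in 105 mutant and 125 control cells that met the rest. A single UMI of Eomes kept out 50 mutant and 259 control cells, 1 UMI of Atoh1 kept out 15 and 94, and Neurod1 at 1 kept out 14 and 74. Of the genes of the rule, Pax6 differed most within members. Per cell the median was 13 Neurod1, 4 Pax6 and 1 Cntn2 UMIs in both, and summed Neurod1 stood at 1094 CPM in mutant members, against 1095 CPM in control members. Summed Pax6 stood at 305 and 379 CPM, a ratio of 0.805 (0.724 to 0.892), and summed Cntn2 at 114.5 and 121.5 CPM. Without members holding markers of another type, described below, the log2 ratio of Pax6 was -0.16 (-0.32 to 0.007). With the gate applied after thinning it was -0.04 (-0.24 to 0.16), so the difference in Pax6 did not hold there.

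A minority of mutant members also held transcripts of the lesions. The 6 lesion markers Wif1, Fstl4, Adamts19, Notum, Rgs6 and Hpse2 summed to between 0 and 180 UMIs per mutant member and to between 0 and 6 per control member. In the mutant library 57 of 95 members had none of them, and 16 members with 5 or more held 620 of the 650 UMIs, 95.4%. In the control library 2 of 792 members reached 5 UMIs. Those 16 mutant members had a median of 21255.5 UMIs, against 10111 in the other 79, and Scrublet, which simulates doublets, called 6 of the 16 doublets. Their Neurod1 level was 624 CPM and their Pax6 level 167 CPM, against 1270 and 357 CPM in the other 79 mutant members. Since 5 raw UMIs are reached more easily by deeper cells, the cut itself favours depth. Lesion markers summed to 499.6 CPM over all mutant members, against 596 CPM in mutant erythroid cells and 1034 CPM in mutant microglia.

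**Figure D3:**
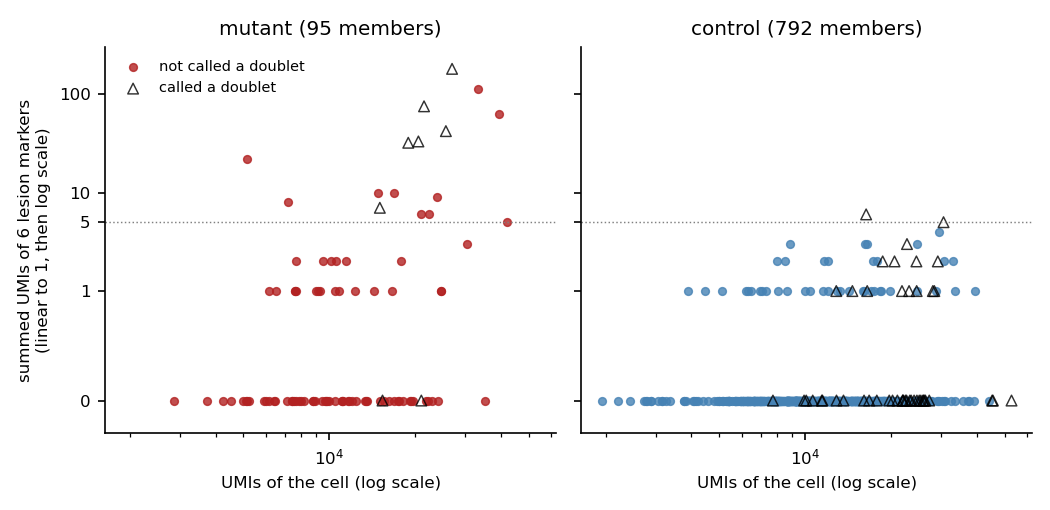
Summed UMIs of the 6 lesion markers (y axis, linear to 1 and logarithmic above) against total UMIs (x axis, log scale) for each member of the mutant (left) and control (right) library, with open triangles for cells called doublets and a dotted line at 5 UMIs. Above the line lie 16 of 95 mutant and 2 of 792 control members.

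Markers of further cell types were found in members of both libraries. At least 5 UMIs of the GABAergic interneuron list (Pax2, Slc32a1, Slc6a5, Gad1, Gad2 and Tfap2b) occurred in 0 of 95 mutant and 34 of 792 control members (4.29%). The mutant count of 0 allows a share of up to 3.81%. Sums were 0 to 4 UMIs per mutant and 0 to 78 per control member, with Pax2 and Slc6a5 at 0 in the mutant. The 4 astroglial genes Slc1a3, Aqp4, Aldh1l1 and Hopx reached 5 UMIs in 1 mutant and 35 control members, with sums of 0 to 13 and 0 to 153. These are 1.05% of mutant and 4.42% of control members. The oligodendrocyte precursor list reached 5 UMIs in 1.05% of mutant and 1.64% of control members, and the endothelial list in 0 and 3 members. The pericyte list did so in 2.11% and 1.39%, the fibroblast list in 2.11% and 1.14% and the choroid plexus list in 1.05% and 0.505%, shares that for the mutant rest on 2, 2 and 1 members. The microglial list did so in no member of either library. At 5 or more UMIs of any of these 9 lists were 19 mutant members (20.0%) and 82 control members (10.4%), and Scrublet called 8 (8.42%) and 48 (6.06%) members doublets. Haemoglobin took 5.81% of mutant and 4.71% of control members' UMIs. Results below are also given without the 19 and 82 members, that is over 76 mutant and 710 control members called unmixed members. A UMI of a gene of other brain sites or neuron types (Hoxa2, Hoxb2, Hoxa3, Hoxb3, Tfap2d, Lhx9, Pou4f1, Lmx1a, Gad1 or Gad2) was found in 40 mutant members (42.1%) and 179 control members (22.6%).

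Across genes, most levels lay within 1.5-fold between the genotypes. Of 6923 genes that reached 20 CPM in the members of 1 or both libraries, 425 stood at least 1.5-fold higher in mutant members (6.14%) and 210 at least 1.5-fold lower (3.03%), and the median log2 ratio, with 1 CPM added to each level, was 0.03. Leaving out the single highest member of each library for each gene left 231 higher (3.34%) and 392 lower (5.66%), a step that by construction takes more from the 95 mutant than from the 792 control members. Among unmixed members 272 of 6775 genes were higher (4.01%) and 343 lower (5.06%). Of the 425 genes first called higher 212 were still so there, and of the 210 lower genes 154. In all other passing cells 225 of the 425 and 83 of the 210 passed 1.5-fold in the same direction, where 5.73% of all tested genes were higher and 5.89% lower. Within the mutant library, 246 of the 425 and 154 of the 210 stood lower in members than in the other passing cells. No share over all tested genes is given beside these 2 counts.

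The highest ratios to control in mutant members included 4 of the 6 lesion markers. The lesion list was chosen with earlier results of these data known, so the place of its genes in this ranking is a description only. The 12 highest ratios belonged to Rgs6, Fstl4, Wif1, Pde1a, Adamts19, Tnfrsf19, Mybpc1, Tmem132c, Lingo2, Spock3, Ntrk3 and Aard. Rgs6, a regulator of G protein signalling, stood at 185 CPM in mutant and 2.74 CPM in control members, and Fstl4, a follistatin-like protein, at 167 and 2.54 CPM. Wif1, a secreted Wnt inhibitor, stood at 63.0 and 0.685 CPM, from 82 and 7 UMIs. The 16 members with 5 or more lesion UMIs were chosen on Rgs6, Fstl4, Wif1 and Adamts19 among others, so levels of these genes are not set against the rest. Mutant erythroid cells held Wif1 at 132 CPM, above the level in members. In the 79 mutant members with under 5 lesion UMIs, Mybpc1, Tmem132c and Lingo2, which the cut did not use, were at 20.1, 35.9 and 42.2 CPM, against 11.9, 26.8 and 28.0 CPM in control members.

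Neither targeted gene was low in mutant members. Smarca4 (chr9:21616169-21704230) stood at 85.3 CPM (70.2 to 103) in mutant members and 80.1 CPM (74.7 to 85.8) in control members, a ratio of 1.06 (0.865 to 1.30). In all other passing cells it stood at 49.7 and 67.9 CPM, a ratio of 0.732 (0.712 to 0.752), and in Atoh1 gate cells at 53.7 and 67.4 CPM, a ratio of 0.796 (0.726 to 0.872). The ratio in members therefore lay above that in all other passing cells by more than counting error, but its interval overlapped that in Atoh1 gate cells. Among unmixed members the Smarca4 ratio was 1.08 (0.840 to 1.37). Ctnnb1 (chr9:120929216-120960507), which encodes beta-catenin, stood at 93 CPM in mutant and 77.3 CPM in control members, with a ratio of 1.20 (0.985 to 1.46) that was 0.878 (0.655 to 1.16) among unmixed members. In the other cells Ctnnb1 stood at 173 and 121 CPM. These libraries count the 3' ends of transcripts, so UMIs of Ctnnb1 do not read the deleted exon, and whether those of Smarca4 read the deleted part is not given. Of 24 tested subunits of the BAF complex none passed 1.5-fold either way, where 6.14% of all genes were higher and 3.03% lower. With shares that small, a count of 0 among 24 genes says little. Their median log2 ratio was 0.07.

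Wnt target genes were higher in mutant members, as in the rest of the mutant library. All 8 tested targets passed 1.5-fold, against 6.14% of all genes, with a median log2 ratio of 1.69, and all 8 did so in the other cells, with a median of 2.35. Axin2, Lef1, Wif1 and Tnfrsf19 were under 20 CPM in control members and were tested through the mutant library alone. That way of choosing favours higher calls, so the count and the median are a description. Axin2, a feedback inhibitor of the pathway, stood at 53 CPM in mutant and 13.0 CPM in control members, and Lef1, one of its transcription factors, at 76.9 and 17.7 CPM. Nkd1, another inhibitor, stood at 224 and 82.8 CPM, and was detected in 69 of 95 mutant and 405 of 792 control members. Erythroid cells, which should lack these transcripts, held in the mutant and control library Axin2 at 47.6 and 7.72 CPM, Lef1 at 65.4 and 9.72 CPM and Nkd1 at 196 and 49.1 CPM. In the 79 mutant members with under 5 lesion UMIs, Lef1 was at 17.9 CPM and Axin2 at 30.6 CPM. Among unmixed members 3 of 5 tested targets were higher, against 4.01% of all genes, with a median of 0.83, Lef1 not being one of them at a log2 ratio of 0.06. Wif1 and Notum are on this list and also among the lesion markers by which members were left out. That step can therefore lower the list by itself. Gating after thinning gave the list a median of 0.59.

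Transcription factors of the granule lineage were at similar levels in members of both genotypes. Of 28 tested, 3 were higher (10.7%, against 6.14% of all genes) and none lower in mutant members, with a median log2 ratio of 0.06. In all other cells 15 were lower and 5 higher, against 5.89% and 5.73% of all genes, and their median was -0.65. Zic1, a zinc finger factor of the dorsal hindbrain, stood at 556 CPM in mutant and 465 CPM in control members. Nfix, which drives granule neuron maturation, stood at 132 and 192 CPM, a ratio of 0.689 (0.586 to 0.806) that did not pass 1.5-fold. En2, the engrailed homeobox gene of cerebellar patterning, was among the 3 higher, at 95.3 CPM in mutant and 48.1 CPM in control members, a ratio of 1.98 (1.61 to 2.42). It was detected in 55 of 95 mutant and 295 of 792 control members, and its ratio was 2.04 (1.60 to 2.57) among unmixed members and 1.28 (1.24 to 1.32) in the other cells. The others were the homeobox genes Meis2, at 181 and 57.7 CPM, and Pbx3, at 304 and 173 CPM. Meis2 was in few cells of either library, 25 mutant and 106 control members, and Pbx3 was no longer higher among unmixed members, at 116 and 137 CPM, or with the gate applied after thinning, at a log2 ratio of -0.30. Sox4, a factor of immature neurons, was detected in 95 of 95 mutant and 738 of 792 control members, at 696 and 490 CPM, just under 1.5-fold.

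Genes of granule precursors and of the Hedgehog pathway were the list with most lower members. Of 16 tested, 6 were lower and 1 higher in mutant members, a share of 37.5% lower against the 3.03% of all genes, with a median log2 ratio of -0.34. Sfrp1, a secreted Wnt modulator, stood at 10.8 CPM (5.88 to 18.0) in mutant and 67.1 CPM (62.2 to 72.3) in control members, a ratio of 0.16 (0.0872 to 0.271). It was detected in 13 of 95 mutant and 180 of 792 control members, and erythroid cells held it at 14.8 and 14.3 CPM, so the level in mutant members was no higher than in cells that should lack the gene. In the other cells Sfrp1 was at 35.7 and 40.6 CPM. Mfap4, which encodes an extracellular matrix protein, stood at 109 and 206 CPM in members, and the gap was wider in Atoh1 gate cells, at 54.2 and 347 CPM. Ccnd1, the cyclin that carries the Hedgehog signal to the cell cycle, stood at 19.2 and 45.4 CPM, Hey1 at 13.8 and 25.1 CPM, and Smo, the transducer of the pathway, at 17.7 and 27.4 CPM. Id1, an inhibitor of bHLH factors, was at 20.8 and 38.3 CPM over all members but at 23.7 and 21.2 CPM among unmixed members. Gli2 and Ptch1, a transcription factor and the receptor of the pathway, did not pass 1.5-fold, at 51.5 and 36.2 CPM and at 66.1 and 50.1 CPM. Sox2, a progenitor factor, was the 1 higher gene, and 1 mutant member held 45.1% of its 51 UMIs. After thinning and gating Sox2 was lower, at a log2 ratio of -0.29, and Hey1 and Smo were not, at 0.27 and 0.07.

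Cycling transcripts were at like shares among members of both genotypes. After thinning, 17.0% of mutant and 16.6% of control members held a UMI of Mki67 or Top2a, against 33.4% and 44.3% of Atoh1 gate cells. Erythroid cells held them in 9.67% of mutant and 16.9% of control cells, but embryonic erythroid cells can divide themselves and are no background for these genes. Without thinning the members' shares were 32.6% and 29.9%. Mki67, the proliferation antigen, stood at 60.7 and 62.5 CPM, and Top2a, the topoisomerase of mitotic cells, at 160 and 163 CPM. At least 20 UMIs of the G2/M phase list were found in 17 of 95 mutant members (17.9%) and 144 of 792 control members (18.2%), and the members with most, 10 mutant and 79 control cells, held 74.5% of the list's UMIs in the mutant and 77.3% in the control library. Of 22 tested G2/M genes 5 were lower in mutant members (22.7%, against 3.03% of all genes), among them Cenpf, a kinetochore protein, at 99.9 and 174 CPM, and Ube2c, which promotes mitotic exit, at 146 and 266 CPM. Of 17 tested S phase genes 2 were higher (11.8%), and of 10 tested genes of cell cycle exit 1 was (10%), against 6.14% of all genes.

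Genes that set granule neurons apart from the other cells were ranked by their ratio. The set for low ratios was chosen by the level in control members and that for high ratios by the level in mutant members, so each choice favours its own direction and the ranking is a description. Among genes at least 2-fold higher in control members than in other control cells, the 12 lowest ratios belonged to Caln1, Cartpt, Necab3, Epha3, Ostf1, Brinp1, Tmem91, Epha5, Sema5a, Tlx3, Ntf3 and Ttc9b. Epha3, a receptor for ephrin guidance cues, stood at 113 CPM (95.5 to 133) in mutant and 267 CPM (257 to 277) in control members, a ratio of 0.423 (0.356 to 0.50). It was detected in 33 of 95 mutant and 435 of 792 control members. The ratio was 0.429 (0.347 to 0.524) among unmixed members, 0.809 (0.759 to 0.861) in Atoh1 gate cells and 1.01 in Eomes gate cells. With the gate applied after thinning, which left 39 mutant and 269 control members, the log2 ratio of Epha3 was -0.48 and under 1.5-fold, against -1.23 over all members. Epha5, a related receptor, stood at 198 and 334 CPM, a ratio of 0.591 (0.519 to 0.671). Its log2 ratio of -0.76 was -0.54, under 1.5-fold, without the members that held genes of other sites, and -2.45 with the gate applied after thinning. Ostf1, an SH3-domain protein, stood at 105 and 233 CPM in members, a ratio of 0.452 (0.378 to 0.537), and was also lower in Atoh1 gate cells, at 36.5 and 98.7 CPM. Erythroid cells held Ostf1 at 10.8 and 39.6 CPM, well under either level in members.

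The remaining genes of that group were present in fewer cells. Cartpt, the precursor of the CART neuropeptides, stood at 67.6 CPM in mutant and 175 CPM in control members, a ratio of 0.387 (0.309 to 0.479), and was detected in 23 of 95 and 284 of 792 cells. In Atoh1 gate cells Cartpt was at 10.1 and 10.3 CPM. Caln1, a neuronal calcium-binding protein, stood at 15.4 and 88.0 CPM, in 13 and 267 cells, and among unmixed members at 11.3 and 94.1 CPM. Tlx3, a homeobox factor, stood at 89.9 and 135 CPM and Ntf3, the neurotrophin NT-3, at 39.2 and 58.0 CPM, ratios of 0.666 and 0.676 whose other-cell values were lower still, at log2 ratios of -2.50 and -1.54. Kirrel3, an adhesion protein of the immunoglobulin family that fell outside this group because other cells hold it too, was at 105 and 298 CPM in members and at 56.4 and 294 CPM among unmixed members. In the other cells Kirrel3 was at 197 and 213 CPM, and in Atoh1 gate cells at 204 and 168 CPM.

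**Figure D4:**
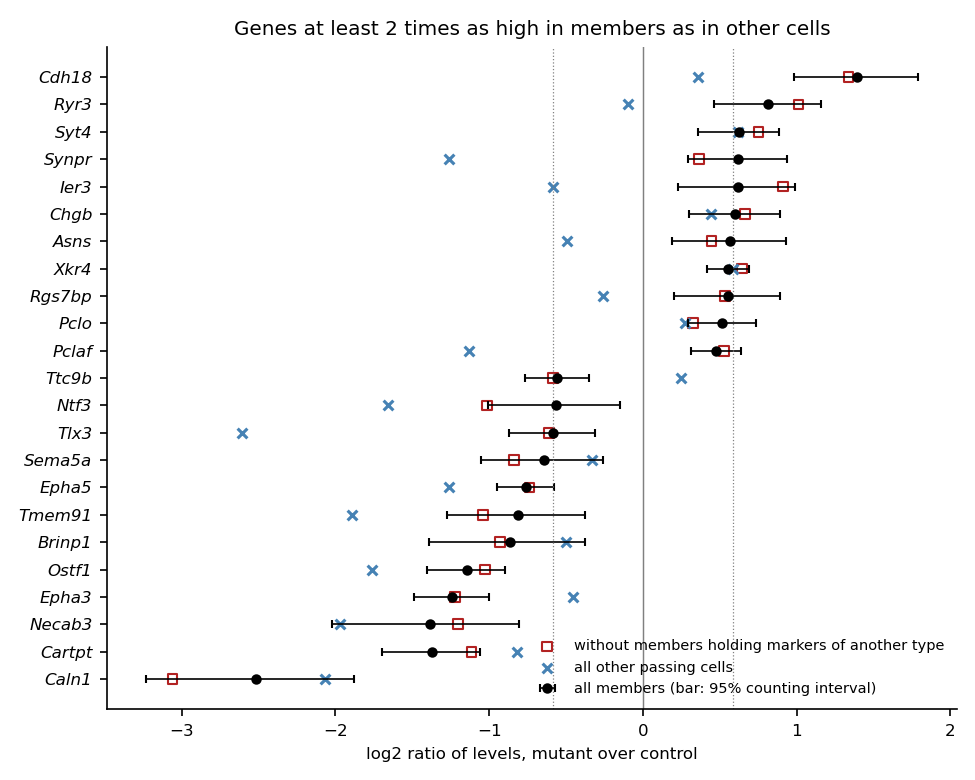
Log2 ratio of levels, mutant over control (x axis), for genes at least 2-fold higher in members than in other cells (y axis), 11 of the 12 highest above the 12 lowest. Filled points with 95% counting intervals are all members, open squares members without markers of another type and crosses all other passing cells, and dotted lines mark 1.5-fold. The ratio of Epha3 is 0.423 in all and 0.429 in unmixed members.

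Of the 12 lowest genes of all those tested, Ttr and Sparcl1 lost their gap without the mixed members, and that of Apoe narrowed. Ttr, the transthyretin of choroid plexus, stood at 333 CPM in mutant and 1564 CPM in control members, but 1 control member held 5645 of its 15980 UMIs, and among unmixed members the levels were 323 and 139 CPM. Sparcl1, a matrix protein of glia, was at 20.3 and 20.9 CPM there, against 29.2 and 75.9 CPM over all members. Apoe, the glial lipid carrier, was at 18.1 and 36.2 CPM there, against 21.5 and 107 CPM over all members. Spsb4, Btbd11 and Igfbp5 kept their gap among unmixed members, at 18.1 and 84.8 CPM, 19.2 and 70.6 CPM, and 42.9 and 116 CPM.

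Some genes of synapses and transmitter receptors were higher in mutant members. Of 20 tested receptor genes 7 were higher and none lower, 35.0% against 6.14% of all genes, with a median log2 ratio of 0.35. Without the mixed members 6 of 19 were higher, against 4.01% of all genes, with a median of 0.15, but with the gate applied after thinning the median was -0.31. Grm5, Grm7 and Grik1, genes of glutamate receptors, stood at 73.0 and 22.6 CPM, 107 and 50.2 CPM, and 63.8 and 12.1 CPM. A single mutant member held 47.0% of the Grik1 UMIs, and without each library's highest member the log2 ratio of Grik1 was 1.51, against 2.30 with it. With the gate applied after thinning Grm7 was lower, at a log2 ratio of -0.79, and it was so without the members that held genes of other sites, at -0.90. Of 30 tested genes of the synapse and transmitter release, 7 were higher (23.3%, against 6.14% of all genes) and none lower, with a median of 0.27, and 4 of 29 were higher among unmixed members, against 4.01% of all genes. Syt4, a synaptotagmin of secretory vesicles, stood at 112 and 72.7 CPM, but its log2 ratio of 0.62 was 0.31 without each library's highest member and 0.50 with the gate applied after thinning, both under 1.5-fold. Dlg2, a postsynaptic scaffold protein, stood at 184 and 83.2 CPM, although the log2 ratio of Dlg2 was -0.08 with the gate applied after thinning.

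Of 23 tested ion channel genes 5 were higher in mutant members (21.7%, against 6.14% of all genes) and 1 lower (4.35%, near the 3.03% of all genes), with a median log2 ratio of -0.03. Among unmixed members 4 of 21 were higher and 4 lower, against 4.01% and 5.06% of all genes. Cacna1e, which encodes the R-type calcium channel, stood at 87.6 CPM in mutant and 41.5 CPM in control members, a ratio of 2.11 (1.70 to 2.60) that was 2.43 among unmixed members. With the gate applied after thinning its log2 ratio was 0.31, under 1.5-fold, against 1.06 over all members. Kcnh7, a potassium channel of the erg family, stood at 197 and 115 CPM, a log2 ratio of 0.77 that was 0.28 with the gate applied after thinning. The 12 highest ratios among genes enriched in members included Cdh18, a cadherin, at 53.8 and 20.5 CPM, and Ryr3, a calcium release channel, at 66.9 and 37.96 CPM. Chgb, the granule protein chromogranin B, was also in this group, at 87.6 and 57.7 CPM. Synpr, Ier3, Asns, Xkr4, Rgs7bp, Pclo and Pclaf were also among these 12, at ratios between 1.39 and 1.54. On thinned members Cdh18 was lower, at a log2 ratio of -0.37, and with the gate applied after thinning so were Cdh18, at -0.40, and Synpr, at -0.74.

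Migration and adhesion genes gave the most calls of the lists. Of 39 tested, 14 were higher in mutant members (35.9%, against 6.14% of all genes) and none lower, with a median log2 ratio of 0.24. Without each gene's highest member 12 were still past 1.5-fold higher and 1 lower, against 3.34% and 5.66% of all genes, with a median of -0.02, while among unmixed members 7 of 37 stood higher and 4 lower, their median being 0.04, where 4.01% and 5.06% of all genes did. Robo1, a receptor for Slit guidance cues, stood at 436 CPM in mutant and 97.8 CPM in control members, with 32.3% of the mutant UMIs in 1 cell, and at 122 and 68.7 CPM among unmixed members. Tenm3, a teneurin of synaptic matching, stood at 334 and 98.5 CPM but at 56.4 and 89.5 CPM among unmixed members. Dab1, which transmits the Reelin signal, stood at 111 and 24.5 CPM but at 11.3 and 11.4 CPM there. Reln itself, the secreted Reelin of granule neurons, was at 598 and 679 CPM, and was not called. Chl1 and Unc5d, an adhesion protein and a netrin receptor, stayed higher among unmixed members, at 56.4 and 9.03 CPM and at 32.7 and 8.79 CPM, although mutant erythroid cells held Chl1 at 104 CPM and Unc5d at 47.8 CPM. With the gate applied after thinning Unc5d and Tenm3 were lower, at log2 ratios of -0.58 and -0.39, and Unc5d was at -0.21 without the members that held genes of other sites.

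Of 34 tested cytoskeletal and axon growth genes none passed 1.5-fold, where 6.14% of all genes were higher and 3.03% lower. Their median log2 ratio was -0.10. The largest differences were lower levels in the mutant, with Gap43, the growth cone protein, at 1597 CPM in mutant and 2277 CPM in control members, a ratio of 0.702 (0.671 to 0.734), and Stmn2, a regulator of microtubules, at 2857 and 3737 CPM, a ratio of 0.765 (0.739 to 0.791). Their ratios among unmixed members were 0.764 and 0.826. Of the other lists, immediate early genes had a median of 0.30 with 1 of 10 higher, near the 6.14% of all genes, and 4 of 10 among unmixed members, against 4.01% of all genes, where Fos stood at 174 and 98.9 CPM and Egr1 at 149 and 87.7 CPM. Catenin and cadherin genes had 2 of 14 higher (14.3%), against 6.14% of all genes, and 1 of 14 among unmixed members, against 4.01%. Without each gene's highest member none of them was higher and 1 was lower, against 3.34% and 5.66% of all genes. None of 8 genes of p53 and apoptosis, 8 of hypoxia and glycolysis or 14 of cholesterol synthesis passed 1.5-fold. Of 5 Notch pathway genes 1, Hes5, was lower (20%). Over all genes 6.14% were higher and 3.03% lower.

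**Figure D5:**
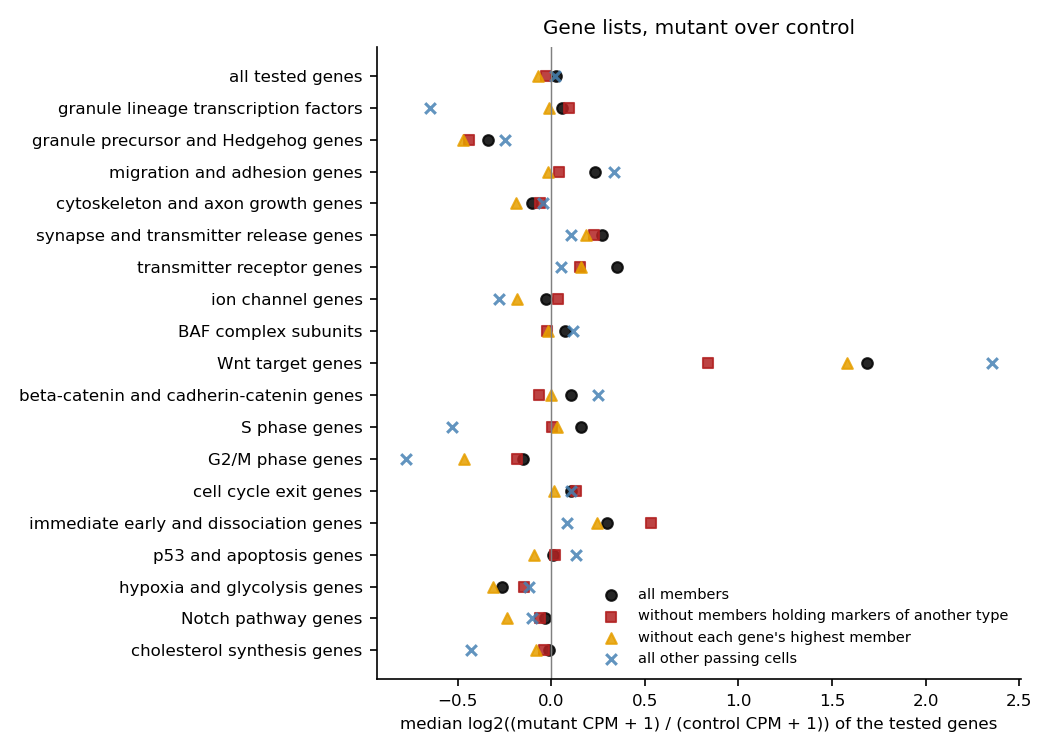
Median log2 ratio, mutant over control (x axis), of the tested genes of each list (y axis), for all members (circles), members without markers of another type (squares), members without each gene's highest cell (triangles) and all other passing cells (crosses). Wnt targets lie farthest right at 1.69 for all members and 0.83 for unmixed members, and granule lineage transcription factors lie at 0.06 in members against -0.65 in other cells. The Wnt targets Wif1 and Notum were among the markers by which members were left out.

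Neuronal genes stood higher in members than in Atoh1 gate cells in both libraries. The 12 genes with the largest control ratio over Atoh1 gate cells included the neurofilament genes Nefm and Nefl, Mapt, which encodes the axonal protein tau, Nrg1, a growth factor gene, and the glutamate receptor gene Grin2b. Nefl stood at 242 CPM in members and 15.3 CPM in Atoh1 gate cells of the mutant library, and at 260 and 22.2 CPM in the control library, log2 ratios of 3.90 and 3.49. Mapt was at 412 and 83.1 CPM in the mutant and 378 and 32.3 CPM in the control library, log2 ratios of 2.30 and 3.51. Grin2b was at 116 and 34.3 CPM in the mutant and 81.8 and 7.23 CPM in the control library. The genes were chosen for a large ratio in the control library, so a smaller ratio in the mutant library shows no difference. Since both gates use Atoh1, these ratios describe the gates.

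Among the genes followed through every alternative, 61 were past 1.5-fold in mutant over control members, and some of these calls were lost. Gated after thinning, 24 were no longer past 1.5-fold in the same direction, among them Brinp1, Hes5, Lef1, Ryr3, Sema5a, Ube2c, Dab1, Aard, Ttr and Sparcl1 besides those given above. Without the members that held genes of other sites 17 were lost, among them Grik1, Ryr3, Sema5a, Spock3, Ube2c and Ier3, and Grik1 was at a log2 ratio of 0.22. Among unmixed members 10 were lost, without each gene's highest member 7, without doublets 6 and on thinned members 4. Chgb and Ier3, which lay at the 1.5-fold line, were under it with TMM factors or median ratios as well.

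Members varied among themselves along Rbfox3. After thinning, 24 of 94 mutant members (25.5%, 17.1 to 35.6) and 260 of 784 control members (33.2%, 29.9 to 36.6) held an Rbfox3 UMI, against 3.32% and 9.33% of erythroid cells. In the control library, members with Rbfox3 had higher levels of 9 of 22 ion channel genes than those without, and lower levels of none, with a median log2 ratio of 0.45, when 178 of 6825 genes (2.61%) were higher. Examples were the calcium channel subunit gene Cacna2d3, at 34.1 CPM with and 10.3 CPM without Rbfox3, and Kcnh7, at 170 and 88.5 CPM. Migration and adhesion genes were higher in 7 of 36 cases. In the mutant library 12 of 23 ion channel genes were higher and 3 lower with Rbfox3, with a median of 0.62, when 1456 of 7400 genes (19.7%) were higher on the shallow sum of 24 cells. Kcnh7 stood at 336 and 160 CPM there. G2/M genes were lower with Rbfox3 in 16 of 20 cases in the mutant library and in 0 of 23 in the control library, where 12.1% of all genes were lower in the mutant and 0.425% in the control split. That difference was not tested.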

How the data were processed

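Both libraries were made from 7-AAD-sorted, papain-digested cells with the 10x Chromium 3' v3.1 kit. The authors deposited UMI counts as whole numbers, 1 for each gene in each barcode and not normalized, from Cell Ranger 7.0.1 on mm10, per the submitters' processing notes. For the annotation, the counting of introns and the calling of cells, the settings were not given in the sources used here. Groups follow the genotype labels.

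Of 21596 mutant and 21457 control barcodes, 16482 and 16812 passed the filter, with 186227263 and 193157898 UMIs. Doublets were called with Scrublet in scanpy 1.11.5 at an expected 16%, marking 618 mutant and 843 control cells, and were kept. UMIs were summed over members and given as CPM, and ratios as log2 after adding 1 CPM, for genes at 20 CPM or more. Intervals at 95% are exact Poisson for levels, Clopper-Pearson for shares and exact conditional binomial for ratios. Erythroid cells had at least 20% haemoglobin UMIs, and members were not left out of them. The functions were tested on simulated counts. The members and lists were chosen with earlier results of these data known.

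Named were the rule genes, Smarca4, Ctnnb1, the 12 largest ratios each way at 50 CPM or more, the same among genes at least 2-fold higher in members than in other cells, up to 6 genes per list by size of ratio, the granule neuron markers and the 12 genes highest over Atoh1 gate cells. The rankings left out the genes of the rule, sex-linked and unnamed (Gm or Rik) genes and those for haemoglobin, ribosomal and mitochondrial proteins. Cacna2d3, Gli2, Mki67, Ptch1, Reln, Smo, Top2a and Zic1 were named after their values were seen, and some genes that the rule picks are not reported here. Alternatives were the cell filter, doublets, gate thresholds, thinning, CPM minimum, pseudocount and scaling with TMM factors of edgeR 4.0.16, median ratios or partial totals. Leaving out each gene's highest member, or members with 5 or more UMIs of another type's markers, was added after seeing the data. Coordinates of genes are from GENCODE M21 (GRCm38).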

Additional observations from a re-analysis of the deposited data

Results flagged for a closer look

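Synpr, which encodes the synaptic vesicle protein synaptoporin, was on opposite sides in granule neurons and in Atoh1 gate cells over all UMIs. Its log2 ratio, mutant over control, was 0.6121 in members, from 74.6 CPM for the mutant, against 48.4 CPM for the control library. In Atoh1 gate cells it was -0.59, from 66.1 CPM for the mutant, against 99.7 CPM for the control library. The difference between the kinds of cells was not tested. A single mutant member held 29.9% of the mutant UMIs of Synpr, without each library's highest member the log2 ratio was 0.15, and among unmixed members it was 0.36. With the gate applied after thinning the log2 ratio in members was -0.74, the same sign as in Atoh1 gate cells, so the opposite direction does not hold there.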

How the results depend on the processing

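No paired analysis was possible because each genotype has 1 library and the labels give no replicate number, and no replicate could be left out for the same reason. The share of members, mutant over control, ran from 0.0915, without members holding a UMI of genes of other sites or neuron types, to 0.144, with the gate on thinned cells, against 0.122.

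Against 425 genes higher and 210 lower, the counts were 703 and 451 at 10 CPM or more, 202 and 58 at 50 CPM, 2278 and 2234 with no minimum, 992 and 722 with members thinned to 3000 UMIs, 231 and 392 without each gene's highest member and 272 and 343 without members holding markers of another type. The lower count was 651 with the gate on thinned cells and 421 without members holding other-site genes. The 50 CPM, 10 CPM and unfiltered settings test different numbers of genes, thinning and gating on thinned cells leave fewer UMIs or cells, and for the rest the cause was not tested. Under the 3 other scalings no list median moved beyond its spread and no named gene changed sign, while Chgb and Ier3 passed under 1.5-fold with 2 of them.

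List medians on the log2 scale that moved, with the gate on thinned cells, were 0.41 for Notch, -0.10 for S phase, 0.59 for Wnt, -0.066 for catenin and cadherin, 0.23 for lineage factors, 0.0069 for hypoxia, 0.63 for immediate early, 0.28 for p53, 0.043 for synapse and -0.31 for receptor genes. With members thinned they were -0.41 for G2/M, -0.044 for catenin and cadherin, 0.34 for cell cycle exit, 0.17 for lineage factors, -0.071 for hypoxia and 0.54 for immediate early genes. Without members holding other-site genes they were 0.13 for G2/M, 0.13 for Notch, -0.17 for catenin and cadherin, 0.29 for cell cycle exit and -0.23 for cytoskeletal genes. Without members holding markers of another type they were 0.0026 for S phase, -0.067 for catenin and cadherin and 0.54 for immediate early genes. For G2/M genes the median was -0.47 without each gene's highest member and -0.027 without Scrublet doublets.

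Named genes that changed sign, as log2 ratios, were Cdh18 at -0.40, Dlg2 at -0.077, Grm7 at -0.79, Hey1 at 0.27, Pbx3 at -0.30, Smo at 0.072, Sox2 at -0.29, Sparcl1 at 0.71, Synpr at -0.74, Tenm3 at -0.39, Ttr at 0.67 and Unc5d at -0.58 with the gate on thinned cells. With members thinned they were Cdh18 at -0.37 and Sox2 at -0.60. Without members holding other-site genes they were Adamts19 at -0.28, Grm7 at -0.90, Id1 at 0.084, Ttr at 0.87 and Unc5d at -0.21. Without members holding markers of another type they were Dab1 at -0.010, Id1 at 0.15, Pbx3 at -0.23, Tenm3 at -0.66 and Ttr at 1.21. For these the cause was not tested. With 95 mutant members, a gene at 20 CPM rests on few UMIs, and 1 cell can carry a large part of them.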
